A study of Mus musculus with 10 samples.

Results

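The genes Aoah and Elmo1, which lie next to each other on mouse chromosome 13, were followed in nascent RNA after acute loss of the transcription factor SOX2, together with the other transcribed units (TUs) of the surrounding region. A TU is a stretch of 1 strand on which nascent RNA was detected. Both genes were selected by their symbols, and each had 1 TU, out of 40779 TUs in all, of which 16137 carried a gene symbol. The neighbourhood was taken as every TU on either strand that overlapped the Aoah TU extended by 500 kb on each side, which gave 48 TUs besides Aoah itself, with Elmo1 among them. Aoah was picked because of its loss in these same libraries, so its values below describe the gene and carry no test, whereas Elmo1 was named as the gene next to it, and the other neighbours were taken by position.

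The cells were SOX2-FKBP mouse embryonic stem cells (mESCs), an E14-derived line in which both copies of Sox2 encode SOX2 fused to an FKBP degron tag, and all 5 groups carried this fusion. Untreated cells (NT) received DMSO, and the others received 500 nM dTAG-13, a small molecule that recruits the tagged protein for degradation, for 0.5, 1, 2 or 6 hours (hours post depletion, hpd). Nascent RNA was labeled with 2 mM 4-thiouridine (4SU) for 10 min and sequenced by TT_chem-seq, with 2 libraries for each group. The model has limits: the line came from picked homozygous clones that responded to dTAG-13, and the cells were grown with LIF and inhibitors of MEK and GSK3-β. The sources used here do not say whether replicates were separate cultures, so p-values measure the spread between these libraries, which may be technical.

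Aoah encodes acyloxyacyl hydrolase, a secreted lipase best known from macrophages, dendritic cells and kidney, where it removes secondary acyl chains from the lipid A part of bacterial lipopolysaccharide and so inactivates it. Elmo1 encodes a scaffold protein that binds DOCK family exchange factors, and the ELMO-DOCK complex loads the small GTPase Rac, which drives actin remodeling in cell migration and in the engulfment of dying cells. SOX2 binds DNA through its HMG domain, often beside OCT4, at regulatory elements of pluripotent cells.

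The libraries held between 11131490 and 25854106 fragments over all TUs. All 10 listed embryonic stem cell markers were tested, among them Pou5f1 at a mean of 159 CPM and Nanog at 408 CPM in NT. Of 10 leukocyte markers, 3 had a TU (Cd68, Spi1 and Fcgr3), with a summed level of 18.1 to 19.3 CPM in NT and 16.8 to 16.9 CPM after 6 h, and Ptprc, Adgre1, Csf1r, Itgam, Cd14, Lyz2 and Tyrobp had none. None of the 3 passed the test described below at any time. Of the stem cell markers, 7 fell after 6 h, a time at which 9.20% of all tested TUs fell and 6.61% rose. Markers of other cell types moved as well, and the calls given for them are those after 6 h unless another time is named. Of 7 fibroblast markers 2 were tested and 1, Pdgfrb, rose, with a summed level of 9.74 to 12.5 CPM in NT and 27.3 to 42.6 CPM after 6 h, and Col1a2, Col3a1, Dcn and Lum had no TU. Of 6 primitive endoderm markers 5 were tested and 1, Dab2, rose, with a summed level of 17.6 to 17.9 CPM in NT and 51.7 to 62.4 CPM after 6 h. Dab2 also rose after 1 and 2 h (log2 fold changes of 0.91 ± 0.15 and 1.30 ± 0.15 (SE), adjusted p = 0.0015 and 3.91e-05, edgeR), and Gata6 rose after 2 h (1.14 ± 0.31, adjusted p = 0.029, edgeR). Pdgfrb likewise rose after 1 and 2 h. Of 6 trophoblast markers 2 were tested and 1, Tfap2c, fell, and Elf5, Hand1 and Krt7 had no TU. The summed level was 39.5 to 46.4 CPM in NT and 24.7 to 28.5 CPM after 6 h. Most of this sum was Tfap2c, at 44.2 and 36.8 CPM in NT. The other tested trophoblast marker, Eomes, rose at the earlier times, from 2.15 and 2.69 CPM in NT to 6.87 and 7.01 CPM after 0.5 h, 7.53 and 7.52 CPM after 1 h and 7.63 and 9.18 CPM after 2 h. Its log2 fold changes were 1.52 ± 0.21 (SE), 1.64 ± 0.20 and 1.79 ± 0.20 (adjusted p = 0.0015, 0.00018 and 3.98e-05, edgeR). After 6 h it measured 3.16 and 3.49 CPM and did not pass the test (adjusted p = 0.18, edgeR). The part of these shifts in the results below was not tested.

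The Aoah TU spanned chr13:20936410-21031234 on the plus strand (mm10), a length of 94.8 kb. It did not begin at the annotated start of the gene. RefSeq places Aoah at chr13:20794103-21036617, so the TU opened 142 kb inside the gene, in intron 11 of a transcript with 21 exons, and covered 39.1% of the gene, with 10 exons inside the TU. The next exon lay 5.40 kb further on. The Elmo1 TU spanned chr13:20184738-20610672 on the same strand, a length of 426 kb, and opened 94.2 kb inside the annotated gene (chr13:20090507-20608353). The end of the Elmo1 TU lay 326 kb before the start of the Aoah TU, and 40.9% of the Elmo1 TU fell inside the window.

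Because both TUs opened within their genes, the sequence from 250 bases before to 50 bases after each start is shown. The annotated start of Aoah is given for comparison, as no TU was found there. The sequences were read from the RefSeq GRCm38.p6 assembly (mm10), plus strand, 5′ to 3′, and capitals mark the 1 match to an octamer-like motif, ATGCNAAT.
Aoah TU start, chr13:20936161-20936460: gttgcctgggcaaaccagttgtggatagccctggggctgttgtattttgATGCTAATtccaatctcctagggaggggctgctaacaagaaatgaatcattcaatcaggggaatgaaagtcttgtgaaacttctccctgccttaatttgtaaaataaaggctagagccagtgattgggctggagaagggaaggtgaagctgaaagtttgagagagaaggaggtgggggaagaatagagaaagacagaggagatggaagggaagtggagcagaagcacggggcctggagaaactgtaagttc
Aoah annotated start, chr13:20793863-20794162: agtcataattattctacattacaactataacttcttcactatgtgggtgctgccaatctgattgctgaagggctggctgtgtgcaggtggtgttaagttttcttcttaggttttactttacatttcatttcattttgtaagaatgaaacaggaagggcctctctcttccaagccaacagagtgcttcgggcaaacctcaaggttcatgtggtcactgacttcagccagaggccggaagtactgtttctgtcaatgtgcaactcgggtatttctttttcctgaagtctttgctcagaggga
Elmo1 TU start, chr13:20184489-20184788: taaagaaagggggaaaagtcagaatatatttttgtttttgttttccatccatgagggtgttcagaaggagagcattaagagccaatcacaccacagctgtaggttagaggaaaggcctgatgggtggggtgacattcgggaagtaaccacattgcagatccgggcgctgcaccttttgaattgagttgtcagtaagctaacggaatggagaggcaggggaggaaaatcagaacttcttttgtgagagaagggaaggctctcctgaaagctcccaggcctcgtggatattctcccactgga
The motifs searched on both strands were CATTGT (the SOX core), ATGCAAAT (the octamer bound by POU factors such as OCT4) and the SOX-octamer composite, which joins both and contains most of the octamer. None of the 3 sequences held any of them. CATTGT was present in 10.7% of all 40779 TU starts and in 12.6% of 32851 annotated starts, and ATGCAAAT in 2.38% and 1.74%. The octamer with a free position, ATGCNAAT, which includes ATGCAAAT, was added after the sequence had been read. It matched at positions -201 to -194 of the Aoah TU start, and the same letters were in 4.01% of all TU starts. Of the Aoah TU start sequence, 59.0% was soft-masked as repeat, against a median of 16.7% over all TU starts. Of the 16 gene symbols of the region, 11 were matched in the table of annotated starts.

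Nascent transcription of Aoah fell steeply within the first 2 hours and then stayed low. Levels are in CPM, the fragment count of a TU scaled to the size of its library with TMM factors. The Aoah TU measured 140 and 145 CPM in the NT libraries (2076 and 1994 fragments), 80.4 and 70.9 CPM after 0.5 h (2060 and 829 fragments), and 22.1 and 21.0 CPM after 1 h (352 and 368 fragments). It then measured 9.61 and 9.18 CPM after 2 h (190 and 157 fragments) and 8.29 and 9.43 CPM after 6 h (118 and 162 fragments). The replicates of each group lay close together. NT, 0.5 hpd, 1 hpd and the later times did not overlap, while 2 and 6 hpd did. In RNA from whole cultures, fewer cells that transcribe a gene and less RNA per cell cannot be told apart.

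Relative to the NT mean, the Aoah level was 53.2% after 0.5 h, 15.1% after 1 h, 6.60% after 2 h and 6.23% after 6 h. The log2 fold changes against NT were -0.91 ± 0.10 (SE), -2.73 ± 0.11, -3.92 ± 0.12 and -4.00 ± 0.12 in that order (n = 2 libraries a group). Between successive times the log2 difference was -1.82 ± 0.11 from 0.5 to 1 hpd and -1.19 ± 0.12 from 1 to 2 hpd. From 2 to 6 hpd it was -0.08 ± 0.13, with a 95% interval from -0.36 to 0.20. The remaining signal was measured by at least 118 fragments in each library. Among 11938 TUs with a symbol and a mean of at least 50 fragments, Aoah ranked 45 from the bottom after 0.5 h, 3 after 1 h, and 2 at 2 and 6 hpd, an order that follows from how it was picked.

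No change of Elmo1 was detected. Its TU measured 37.9 and 30.5 CPM in NT (563 and 420 fragments), 38.1 and 30.4 CPM after 0.5 h (976 and 356 fragments), and 38.9 and 31.5 CPM after 1 h (620 and 554 fragments). It measured 38.3 and 24.9 CPM after 2 h (758 and 426 fragments) and 33.5 and 32.1 CPM after 6 h (477 and 552 fragments). All 4 treated groups overlapped the NT range, and in NT and at 0.5, 1 and 2 hpd the gap between the replicates was wider than any gap between group means.

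The log2 fold changes of Elmo1 against NT were 0.01 ± 0.18 (SE) after 0.5 h, 0.04 ± 0.18 after 1 h, -0.11 ± 0.18 after 2 h and -0.06 ± 0.18 after 6 h. None passed edgeR's quasi-likelihood test with Benjamini-Hochberg adjustment over all 28459 tested TUs (adjusted p = 0.99, 0.94, 0.76 and 0.85). The 95% intervals were -0.38 to 0.40, -0.35 to 0.43, -0.50 to 0.28 and -0.45 to 0.33, so a fall of the size seen for Aoah lay outside each of them. The sign of these small values turned when single libraries were left out or when library totals alone were used, and the tests between successive times gave adjusted p values of 1.00, 1.00 and 0.96. The values are counts over the whole TU, and changes along its length were not analysed here. Per kb of TU, Elmo1 stood at 0.080 CPM and Aoah at 1.50 CPM in NT.

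**Figure D1:**
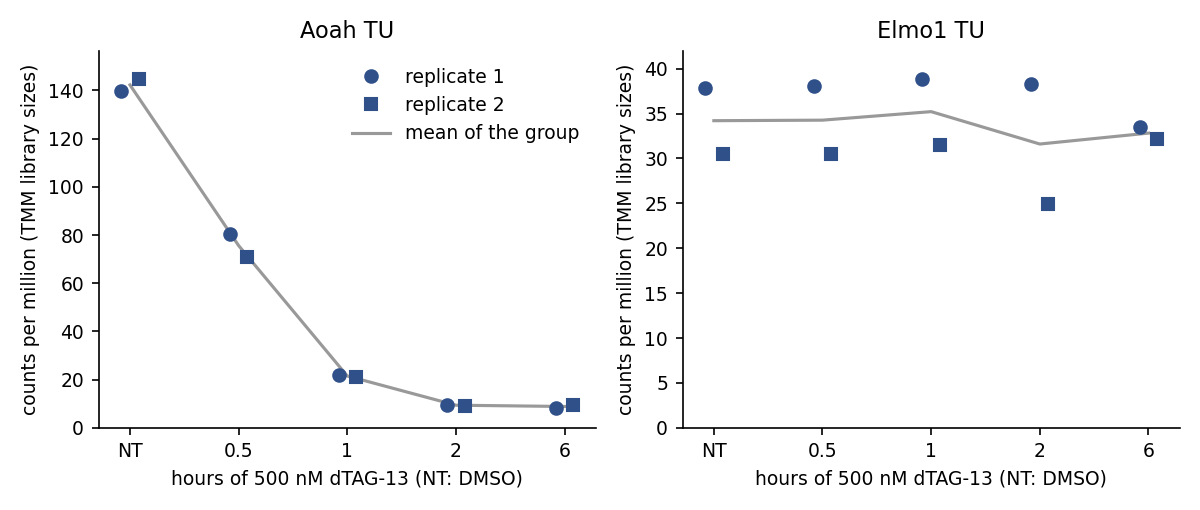
CPM of the Aoah TU (left) and the Elmo1 TU (right) in each of the 10 libraries by hours of dTAG-13; circles are replicate 1, squares replicate 2, and the line joins group means. Aoah fell from 140 and 145 CPM to 8.29 and 9.43 CPM after 6 h, and the Elmo1 groups overlapped, between 24.9 and 38.9 CPM.

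After 1, 2 and 6 h no tested neighbour had a fitted fall as large as that of Aoah, with lowest log2 fold changes of -1.07, -1.25 and -1.20. After 0.5 h, when Aoah stood at -0.91, the TU at chr13:21411177-21413671 on the minus strand stood at -1.17 ± 0.66 (SE, adjusted p = 0.66, edgeR). It held 5 and 11 fragments in NT and 5 and 4 after 0.5 h, and the groups overlapped in CPM. Of the 48 neighbours, 25 lay on the plus and 23 on the minus strand, 15 carried a symbol, and 38 passed the filter on low counts (13 with a symbol and 25 without). No tested neighbour passed the test in either direction at 0.5, 1 or 2 hpd. Fitted values were below 0 for 27, 29 and 28 of the 38, beside 15206, 15630 and 15331 of all 28459 tested TUs. Of the neighbours, 24 had a mean under 50 fragments, so a fall could go uncalled. Over all tested TUs, 0.787% fell and 0.527% rose after 0.5 h, 3.61% fell and 2.15% rose after 1 h, and 5.57% fell and 4.26% rose after 2 h. When single libraries were left out, 1 neighbour fell after 2 h without NT replicate 1 and 3 without the second 2 hpd library. At an unadjusted p under 0.05, 0, 3 and 1 of the 38 neighbours passed at these times (0%, 7.89% and 2.63%), beside 9.61%, 18.0% and 24.7% of all tested TUs. At 6 hpd, 2 neighbours fell and none rose, and 9.20% of all tested TUs fell and 6.61% rose. With 38 TUs, 2 falls are no larger a share than the background of this fit. When the replicate number was added as a block, 1 neighbour fell at 1 hpd, 1 at 2 hpd and 6 at 6 hpd. The share of all tested TUs called under the block was not taken. DESeq2 called none of the 38 after 6 h, and at an unadjusted p under 0.05 edgeR passed 6 (15.8%), beside 30.6% of all tested TUs.

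**Figure D2:**
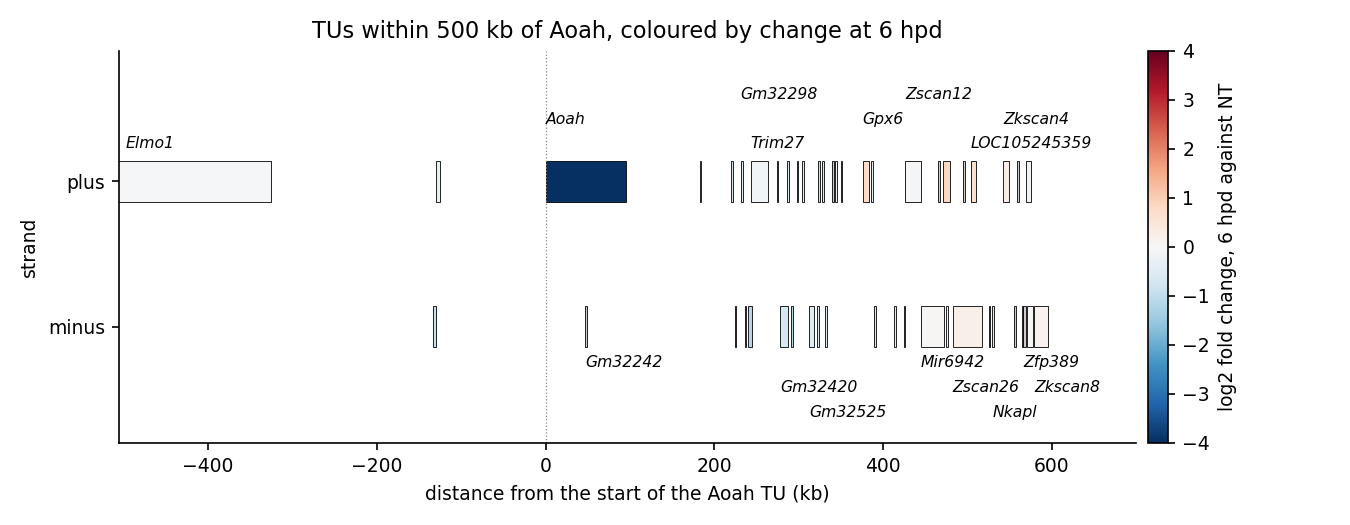
TUs within 500 kb of Aoah by strand and distance in kb from the start of the Aoah TU, coloured by log2 fold change after 6 h against NT (grey: not tested); the shortest TUs are widened to stay visible, and Elmo1 runs on beyond the left edge. Aoah stands at -4.00, and the 38 tested neighbours lie between -1.20 and 0.87.

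Between Elmo1 and the Aoah TU lay 2 weakly transcribed TUs, both inside the annotated Aoah gene. The TU on the strand of Aoah (chr13:20806470-20810729) measured 1.35 and 1.24 CPM in NT, 0.78 and 0.86 CPM after 0.5 h, 0.88 and 0.68 CPM after 1 h, 0.91 and 0.94 CPM after 2 h and 1.12 and 0.93 CPM after 6 h. All 8 treated libraries lay below both NT libraries. Its log2 fold changes were -0.67 ± 0.35 (SE), -0.73 ± 0.35 and -0.48 ± 0.34 at the first 3 times, and none passed the test (adjusted p = 0.60, 0.30 and 0.41, edgeR). The TU on the opposite strand (chr13:20803583-20806462) measured 1.28 and 0.58 CPM in NT and 0.56 and 0.41 CPM after 6 h. Its log2 fold changes at the first 3 times were -0.52 ± 0.48 (SE), -0.80 ± 0.50 and -0.93 ± 0.50 (adjusted p = 0.84, 0.43 and 0.27, edgeR). The log2 fold changes of both TUs after 6 h, in the same order, were -0.34 ± 0.34 and -0.96 ± 0.52 (SE), and neither passed the test (adjusted p = 0.54 and 0.23, edgeR). Both groups of the second TU stood at few fragments, and its interval ran from -2.07 to 0.15.

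Opposite to Aoah on the minus strand lay Gm32242 (chr13:20983618-20986112), an uncharacterized locus within the Aoah TU. It held 10 and 18 fragments in NT, 6 and 6 after 0.5 h, 3 and 10 after 1 h, 8 and 10 after 2 h, and 3 and 9 after 6 h. In CPM this was 0.67 and 1.31 in NT, 0.23 and 0.51 after 0.5 h, 0.19 and 0.57 after 1 h, 0.40 and 0.58 after 2 h and 0.21 and 0.52 after 6 h. All 8 treated libraries lay below both NT libraries, with means of 37.7%, 38.2%, 49.9% and 37.1% of the NT mean. These counts were too low to pass the filter and were not tested.

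Downstream, the nearest tested TU began 87.7 kb past the end of the Aoah TU. The strongest neighbour in CPM was Trim27, which encodes a tripartite motif protein that represses transcription and ligates ubiquitin. It measured 138 and 128 CPM in NT, 129 and 126 CPM after 0.5 h, 138 and 123 CPM after 1 h, 125 and 116 CPM after 2 h and 122 and 123 CPM after 6 h. All libraries of Trim27 lay within a narrow range, those at 2 and 6 hpd below both NT libraries, and its log2 fold change after 6 h was -0.13 ± 0.10 (SE, adjusted p = 0.42, edgeR), with a 95% interval from -0.34 to 0.09.

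Further downstream stood a group of zinc finger genes, which encode DNA-binding proteins with SCAN or KRAB domains. Zscan12 measured 25.4 and 25.4 CPM in NT and 25.0 and 23.4 CPM after 6 h, a log2 fold change of -0.07 ± 0.12 (SE). The TU named for the microRNA Mir6942 covers its host gene Zkscan3, and it measured 69.0 and 62.9 CPM in NT, 60.5 and 55.4 CPM after 0.5 h, 55.5 and 56.5 CPM after 1 h, 63.9 and 60.1 CPM after 2 h and 72.1 and 65.7 CPM after 6 h. Its libraries at 0.5 and 1 hpd lay below both NT libraries, with log2 fold changes of -0.18 ± 0.10 and -0.23 ± 0.10 (SE) that did not pass the test (adjusted p = 0.66 and 0.24, edgeR). The 95% interval after 1 h ran from -0.46 to -0.01. Zscan26, whose TU also covers Pgbd1, measured 45.3 and 35.2 CPM in NT and 49.2 and 45.1 CPM after 6 h. Zkscan8, at the far edge of the window, measured 32.7 and 27.8 CPM in NT and 37.2 and 31.6 CPM after 6 h. After 6 h the last 3 overlapped the NT range, with log2 fold changes of 0.06 ± 0.10, 0.23 ± 0.12 and 0.18 ± 0.16 and adjusted p of 0.72, 0.23 and 0.47 (edgeR). Leaving out NT replicate 1 brought Zscan26 past the threshold, at 0.44 (adjusted p = 0.037).

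Lower transcribed genes moved by larger but uncertain amounts. Gpx6, a glutathione peroxidase gene, stood at 0.54 and 0.51 CPM in NT and 0.84 and 0.93 CPM after 6 h, a log2 fold change of 0.76 ± 0.49 (SE). LOC105245359, Nkapl and Zkscan4 gave 0.71 ± 0.43, 0.63 ± 0.39 and 0.31 ± 0.40. Gm32298, Gm32420 and Gm32525, which are uncharacterized loci, gave -0.51 ± 0.34, -0.69 ± 0.35 and -0.52 ± 0.21. None of these 7 genes passed the test after 6 h (lowest adjusted p = 0.10, for Gm32525, edgeR). Without NT replicate 1, Gm32420 (-1.17) and Gm32525 (-0.82) passed it, and without NT replicate 2 the values of Gm32298 and Gm32420 turned to 0.07 and 0.05.

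The 2 neighbours that fell after 6 h had no gene symbol. The TU at chr13:21176704-21181011 on the minus strand runs antisense across the start of Trim27. It measured 1.21 and 1.53 CPM in NT, 0.74 and 0.94 CPM after 0.5 h and 0.75 and 0.85 CPM after 1 h. It then measured 1.11 and 1.05 CPM after 2 h and 0.63 and 0.58 CPM after 6 h. Its log2 fold changes were -0.74 ± 0.35 (SE), -0.76 ± 0.35 and -0.33 ± 0.33 at the first 3 times. None of these passed the test (adjusted p = 0.52, 0.27 and 0.59, edgeR). After 6 h the value was -1.16 ± 0.37 (SE, adjusted p = 0.047, edgeR). The TU at chr13:21227672-21228568 on the minus strand overlaps the locus Gm32525. It measured 1.82 and 2.83 CPM in NT, 1.44 and 1.80 CPM after 0.5 h, 0.94 and 1.25 CPM after 1 h, 0.91 and 1.69 CPM after 2 h and 0.91 and 1.11 CPM after 6 h, with a log2 fold change after 6 h of -1.18 ± 0.37 (SE, adjusted p = 0.044, edgeR). In both TUs every treated library lay below both NT libraries, from 0.5 h on. The second TU stood at -1.07 ± 0.36 (SE) after 1 h and -0.85 ± 0.35 after 2 h. It did not pass the test at those times (adjusted p = 0.12 and 0.15, edgeR). Both calls lay close to the threshold: the first was lost without any 1 of the 10 libraries, and the second without NT replicate 2, either 1 hpd library or either 6 hpd library. The count of neighbours that fell after 6 h was 5 without NT replicate 1 and 0 without NT replicate 2, without either 1 hpd library or without either 6 hpd library, and 1 without any of the other 4 libraries.

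**Figure D3:**
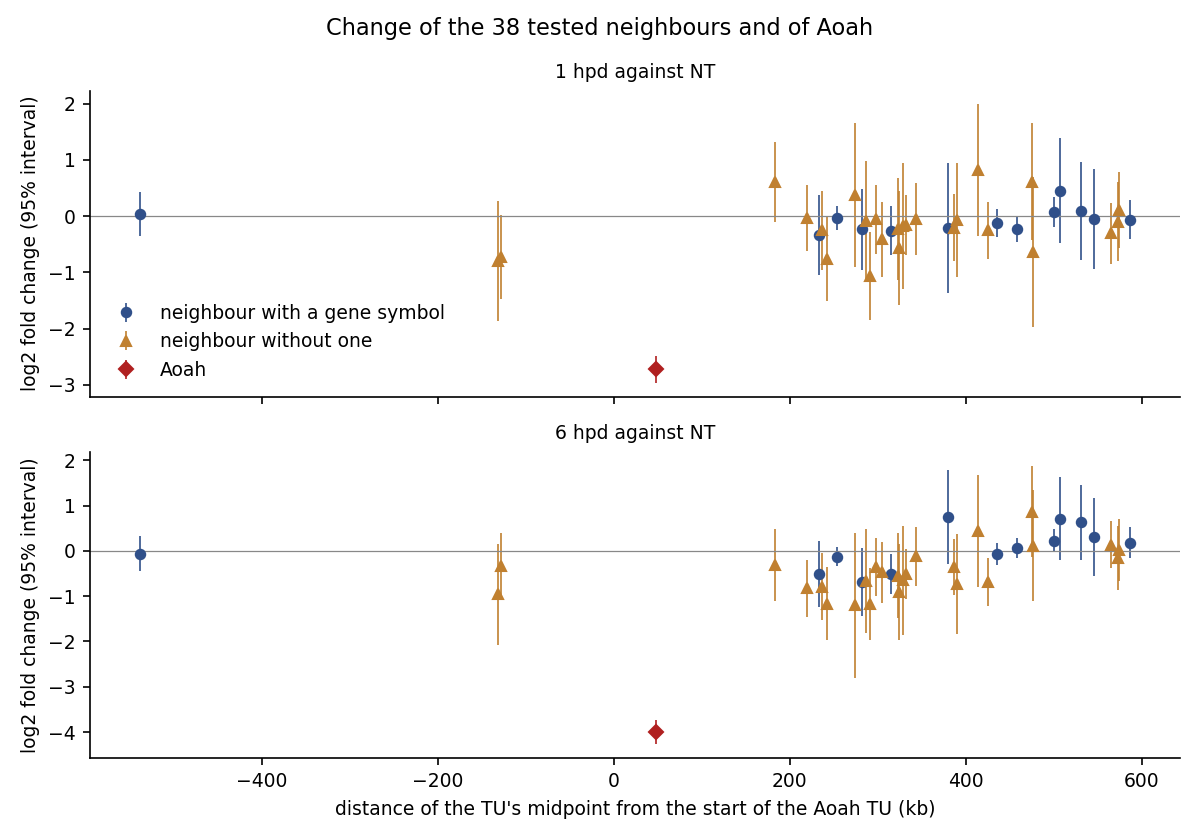
Log2 fold change against NT with its 95% interval after 1 h (top) and 6 hpd (bottom) for Aoah and the 38 tested neighbours, by distance in kb of the TU's midpoint from the start of the Aoah TU. Aoah lies at -2.73 and -4.00, below all neighbours, whose lowest values are -1.07 and -1.20.

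As a whole, the neighbours leaned slightly down, by a median that depended on 1 NT library. The median log2 fold change of the 38 was -0.15 after 0.5 h, -0.14 after 1 h, -0.30 after 2 h and -0.35 after 6 h, beside medians over all tested TUs of -0.02, -0.04, -0.04 and -0.04. Without NT replicate 2 the neighbours' medians were 0.01, 0.02, 0.01 and -0.02, and without NT replicate 1 they were -0.40, -0.40, -0.48 and -0.51. At 6 hpd, the 24 neighbours with a mean under 50 fragments had a median of -0.42, beside -0.26 for all 13500 tested TUs with so few fragments. The 14 neighbours with more fragments had a median of -0.10, beside 0.06 for all such TUs.

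The lean did not follow distance from Aoah in 1 direction. Within 250 kb all 20 tested neighbours were below 0 after 6 h, with a median of -0.60. From 250 to 500 kb 6 of 18 were below 0, with a median of 0.12. Over all tested TUs 15090 of 28459 were below 0, and 8695 of the 13500 with a mean under 50 fragments. Further out, from 500 kb to 1 Mb, 43 of 48 tested TUs were below 0, with a median of -0.49 and 4 called down. Over all 86 TUs within 1 Mb the median was -0.42, with 6 called down (6.98%, beside 9.20% of all tested TUs). Without NT replicate 2 the medians of the 3 distance ranges were -0.11, 0.08 and -0.099, and without NT replicate 1 they were -0.94, 0.23 and -0.66. Much of the nearer stretch is a cluster of tRNA genes, the templates of transfer RNAs, of which RefSeq lists 25 in the window. The 14 tested TUs that overlapped a tRNA gene on their own strand were all below 0 after 6 h, none of them called, with a median of -0.51 that became -0.03 without NT replicate 2 and -0.84 without NT replicate 1. In 13 of these 14 TUs NT replicate 2 stood above NT replicate 1. The 24 TUs without a tRNA gene had a median of -0.02, which pools unlike values. The 8 of them within 250 kb were all below 0, from -1.20 to -0.31, with a median of -0.89 that became -0.32 without NT replicate 2 and -1.09 without NT replicate 1, and both neighbours that fell are among them. The 16 from 250 to 500 kb had a median of 0.16. The range beyond 500 kb and the split by distance were added after the values had been seen.

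Summed over the 38 neighbours, the level was 425 and 432 CPM in NT, 401 and 396 CPM after 0.5 h, 415 and 391 CPM after 1 h, 396 and 387 CPM after 2 h and 414 and 390 CPM after 6 h. All treated libraries lay below both NT libraries, by a small amount, and the mean after 6 h was 93.9% of that in NT. The 13 TUs with a symbol summed to 365 and 337 CPM in NT and 355 and 337 CPM after 6 h, which overlap. The 25 without a symbol summed to 60.1 and 94.3 CPM in NT and 58.9 and 52.2 CPM after 6 h, a mean of 71.9% of NT with both late libraries below NT. The 20 within 250 kb, Trim27 among them, summed to 195 and 228 CPM in NT and 176 and 173 CPM after 6 h, a mean of 82.5% with both late libraries below NT. The 14 TUs over tRNA genes summed to 187 and 216 CPM in NT and 171 and 168 CPM after 6 h, so both late libraries lay below NT. Trim27 is 1 of these 14. The other 13, summed after the values had been seen, gave 48.9 and 87.6 CPM in NT and 49.2 and 45.4 CPM after 6 h, so 1 late library lay between the NT libraries. With 2 libraries a group, an exact permutation test of such sums cannot pass the threshold, and none was run.

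**Figure D4:**
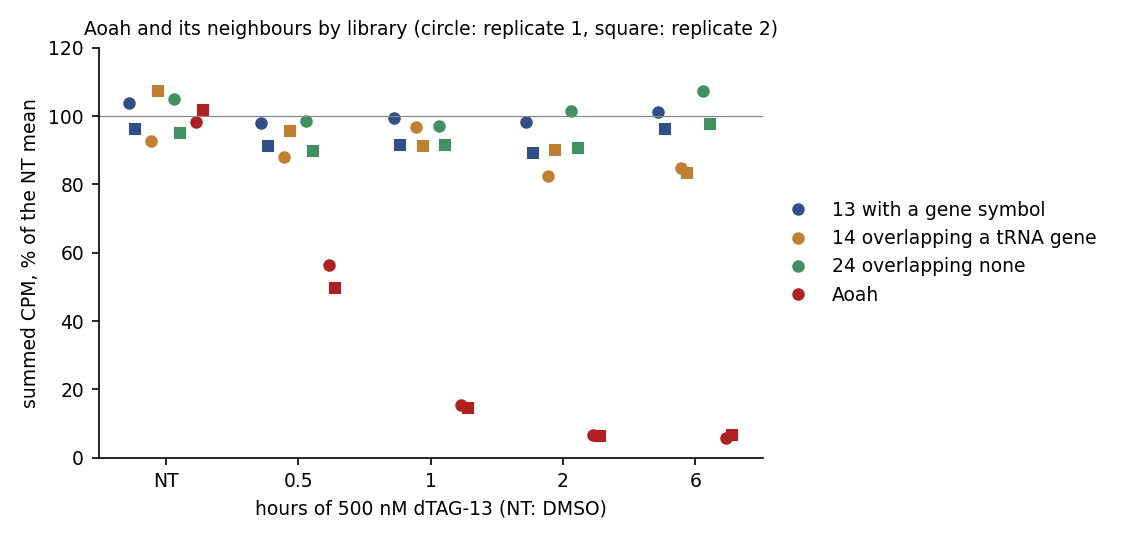
Level in each library as a percentage of the NT mean for Aoah and for summed CPM of 3 sets of neighbours (13 with a gene symbol, 14 over a tRNA gene, 24 over none; the first set shares members with the others). Aoah drops to 6.23% after 6 h, and the mean of the TUs over tRNA genes stands at 84.0%, a set in which Trim27 makes up most of the sum.

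Elmo1 and its partners were read from a list of 38 genes of the ELMO-DOCK-Rac route. Of these, 32 had a TU and 31 were tested, with Elmo1 itself in the counts and the median below. None fell at any time, beside 0.787%, 3.61%, 5.57% and 9.20% of all tested TUs in the order of time, although 1 did after 2 h when either 0.5 hpd library was left out. Elmo2, the paralog of Elmo1, measured 63.9 and 51.8 CPM in NT and 52.5 and 47.9 CPM after 6 h, a log2 fold change of -0.21 ± 0.12 (SE, adjusted p = 0.25, edgeR). Dock1, the exchange factor that ELMO1 binds, measured 694 and 707 CPM in NT and 703 and 834 CPM after 6 h, and Rac1, the GTPase it acts on, measured 92.5 and 95.1 CPM in NT and 94.8 and 101 CPM after 6 h. Neither passed the test (adjusted p = 0.53 and 0.70, edgeR).

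Members of this list rose in number with time: 0 after 0.5 h, 1 after 1 h, 3 after 2 h and 8 after 6 h. Of its 31 tested members, 29 had a mean of at least 50 fragments, and among all 14959 such TUs 142, 575, 1091 and 1631 rose in the order of time. In percent, 0%, 3.23%, 9.68% and 25.8% of the list's tested members rose, beside 0.527%, 2.15%, 4.26% and 6.61% of all tested TUs and 0.95%, 3.84%, 7.29% and 10.9% of those with a mean of at least 50 fragments. Mertk, a receptor tyrosine kinase for the engulfment of apoptotic cells, went from 8.21 and 8.65 CPM in NT to 20.9 and 24.7 CPM after 6 h, a log2 fold change of 1.44 ± 0.16 (SE). Pak1, a kinase activated by Rac, rose by 0.77 ± 0.13, Cyfip1, a subunit of the WAVE complex that links Rac to actin, by 0.50 ± 0.12, and Dock4, an exchange factor for Rac, by 0.57 ± 0.14. The other 4 were Wasf1, Wasf2, Abi2 and Rhog. The list's median log2 fold change after 6 h was 0.29, beside -0.04 over all tested TUs and 0.06 over those with a mean of at least 50 fragments. The 1 rise after 1 h was lost without either NT library or without the second 1 hpd library, and the count of 3 after 2 h became 1 without NT replicate 2 or the first 2 hpd library and 9 without the second. The count of 8 became 3 when NT replicate 2 was left out, and 4 or 2 when the first or the second 6 hpd library was.

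Of 20 genes for the recognition of lipopolysaccharide and lipid A, 13 had a TU, and Tlr4, Cd14, Lbp, Ly86, Bpi, Casp4 and Irak2 had none. Among the 12 besides Aoah, Ly96, which encodes the co-receptor MD-2, measured 3.30 and 3.20 CPM in NT and 3.72 and 5.07 CPM after 6 h and did not pass the test (adjusted p = 0.27, edgeR). At 6 hpd 2 of the 12 fell and 2 rose, a time at which 9.20% of all tested TUs fell and 6.61% rose, and the median log2 fold change was 0.08, beside -0.04 over all tested TUs. Alpl, tissue-nonspecific alkaline phosphatase, fell by 0.37 ± 0.10 on the log2 scale (SE), and Irak4 and Tirap, which act downstream of Toll-like receptors, rose by 0.54 ± 0.13 and 0.45 ± 0.14.

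Cd180, which encodes a Toll-like receptor homolog, measured 15.5 and 15.8 CPM in NT, 23.5 and 26.3 CPM after 0.5 h, 24.4 and 27.3 CPM after 1 h, 21.4 and 20.3 CPM after 2 h and 12.2 and 10.8 CPM after 6 h. It stood above both NT libraries up to 2 hpd and below both after 6 h. The log2 fold change was 0.66 ± 0.13 (SE) after 0.5 h, 0.72 ± 0.13 after 1 h and -0.45 ± 0.13 after 6 h (adjusted p = 0.015, 0.0025 and 0.033, edgeR). The rise after 0.5 h was lost without either NT library or without the second 0.5 hpd library, and that after 1 h without the second 1 hpd library. Of this list's calls after 6 h, all 4 were lost without either 6 hpd library, both falls without NT replicate 1 and both rises without NT replicate 2.

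Outside the window, the genes whose profile over the 10 libraries was most like that of Aoah were Gm41430, Ttn, Dgkb, Gad2 and 1700019D03Rik, with Pearson r of log2 CPM from 0.988 to 0.993. Of the named genes, Ttn encodes titin of muscle, Dgkb a diacylglycerol kinase and Gad2 a glutamate decarboxylase of inhibitory neurons. Each lies on another chromosome than Aoah. Their log2 fold changes after 6 h were -2.74, -2.09, -1.94, -2.66 and -2.07, smaller in size than that of Aoah. The libraries share depth and treatment, and r is a description over points that form 5 groups. Ranked by Spearman rho, 1 of the 5 genes was shared.

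**Figure D5:**
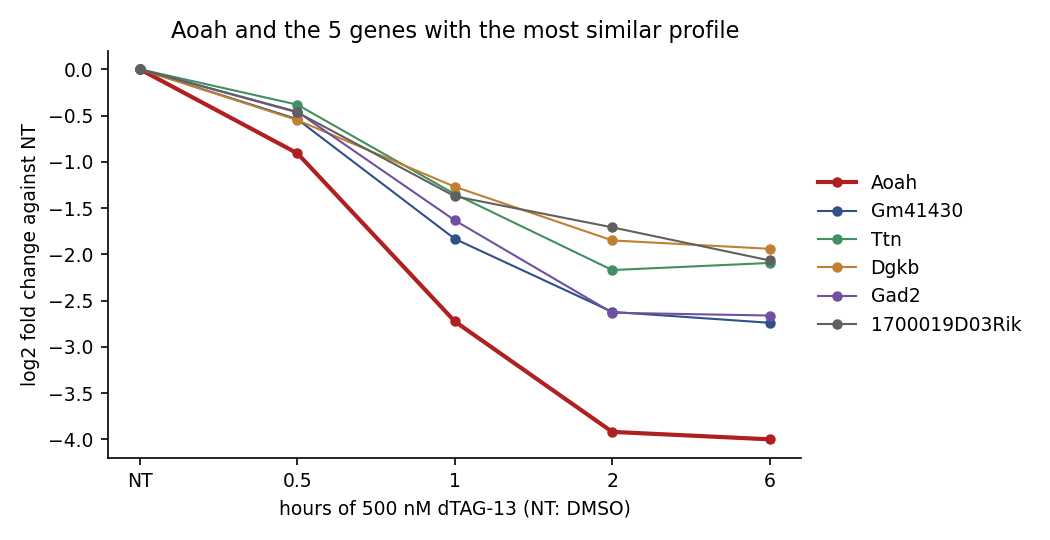
Log2 fold change against NT of Aoah and of the 5 genes whose log2 CPM correlated most closely with it over the 10 libraries, at 0.5, 1, 2 and 6 hpd. Aoah reaches -4.00 after 6 h, and the others lie between -2.74 and -1.94.

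The genes most like Elmo1 were Asxl3, Bcap29, Me2, E130307A14Rik and E2f7, with r from 0.934 to 0.952. Their log2 fold changes after 6 h lay between -0.14 and 0.03. Ranked by Spearman rho, 1 of these 5 was shared.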

How the data were processed

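TT_chem-seq libraries of SOX2-FKBP mESCs (10 libraries, 5 groups of 2) were analysed. Per the study's methods, the authors mapped reads to mm10 with bwa mem (BWA 0.7.17-r1188), kept well mapped alignments (SAMtools 1.10), dropped PCR duplicates (Picard 2.12.0) and split alignments by strand. TUs were segmented from pooled libraries with a 2-state hidden Markov model and matched to RefSeq, so the deposited raw fragment counts per TU share boundaries over all libraries. Removal of duplicates and of poorly mapped reads can lower counts at repeats and tRNA genes.

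A TU entered the fit if 2 or more libraries gave it over 10 fragments each (28459 of 40779, leaving out 0.316% of fragments). edgeR 4.0.16 (R 4.3.3) was run with TMM factors and the quasi-likelihood test over all 10 libraries, with Benjamini-Hochberg adjustment, and TUs were called at an adjusted p under 0.05. Intervals are 95%. The fit was also run on simulated data with 200 changed TUs, drawn from TUs with more fragments than several of the neighbours had. The outcome is not used here. Alternatives were DESeq2 1.42.0, other scalings, filters, windows, the replicate number as a block, and each library left out. Likeness used log2 CPM with a prior count of 2. Motifs were searched with pysam 0.24.0 in Python 3.11.15.

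The members, gene lists and windows were chosen with earlier results of these data known. Named were Aoah, Elmo1, each tested neighbour with a symbol, neighbours called at any time, the minus-strand TU that overlaps Aoah, the 5 genes most like each, and the list members with the lowest p at 6 hpd, at most 4; Elmo2, Dock1, Rac1, Ly96 and the paired TUs inside the Aoah gene were added after their values were seen.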

Additional observations from a re-analysis of the deposited data

How the results depend on the processing

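The fall of Aoah kept its direction under all 17 alternatives of the fit at each time. Over single libraries left out, its log2 fold changes ranged from -1.002 to -0.81 at 0.5 hpd, -2.76 to -2.68 at 1 hpd, -3.95 to -3.89 at 2 hpd and -4.10 to -3.90 at 6 hpd. With library totals alone they were -2.81 at 1 hpd and -4.04 at 2 hpd. The difference from 2 to 6 hpd ranged from -0.18 to 0.019 and turned positive without 6 hpd replicate 1.

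Elmo1 passed the test in none of the 17 alternatives at any time. Its log2 fold changes ranged from -0.17 to 0.18 at 0.5 hpd, -0.12 to 0.22 at 1 hpd, -0.46 to 0.15 at 2 hpd and -0.19 to 0.12 at 6 hpd when single libraries were left out. Between successive times the ranges were -0.13 to 0.21, -0.50 to 0.091 and -0.19 to 0.40. With library totals alone Elmo1 turned to -0.024 at 0.5 hpd, to -0.049 at 1 hpd and to -0.025 from 0.5 to 1 hpd.

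Of the neighbours, at 6 hpd 1 fell with RLE size factors, 0 without a count filter, 0 with a mean of at least 50 fragments, 0 with DESeq2, 0 on the strand of Aoah alone and 6 within 1 Mb, and within 1 Mb 1 fell at 1 hpd and 2 at 2 hpd. With single libraries left out the count that fell was 0 to 3 at 2 hpd and 0 to 5 at 6 hpd, and 0 to 1 rose at 6 hpd. The median ranged from -0.40 to 0.012 at 0.5 hpd, -0.40 to 0.020 at 1 hpd, -0.48 to 0.0055 at 2 hpd and -0.51 to -0.015 at 6 hpd, and was -0.60 within 250 kb at 6 hpd. With library totals alone the summed CPM was 448 in NT, 408 at 0.5 hpd and 378 at 2 hpd. The TU named Mir6942 turned to -0.027 with library totals alone. Gm32298 and Gm32420 were at -0.91 and -1.17 without NT replicate 1 and turned to 0.072 and 0.052 without NT replicate 2.

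For the ELMO-DOCK-Rac list, leaving out single libraries gave 0 to 2 rises at 1 hpd, 1 to 9 at 2 hpd and 2 to 12 at 6 hpd, and 0 to 1 falls at 2 hpd. Library totals alone gave 0 rises at 1 hpd and 1 fall at 2 hpd. For the lipopolysaccharide list, leaving out single libraries gave 0 to 1 rises at 0.5 hpd and at 1 hpd, 0 to 2 at 6 hpd, 0 to 1 falls at 1 hpd and 0 to 2 at 6 hpd. Library totals alone gave 1 fall at 1 hpd, 1 fall at 2 hpd and 1 rise at 6 hpd. RLE size factors gave 1 rise at 2 hpd and 1 fall at 6 hpd, and DESeq2 0 falls and 1 rise at 6 hpd. Spearman rho shared 1 of 5 genes for Aoah and 1 of 5 for Elmo1. The cause of these shifts was not tested.

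Replicate numbers were not taken to pair the libraries in the main fit, as the labels name no shared batch. The correlations of same-numbered deviations were nonetheless all positive. They ranged from 0.054 to 0.66 over the 10 pairs of groups, and from 0.20 to 0.43 between NT and the treated groups. The calls depended on this choice. With a replicate block, 1 neighbour fell at 1 hpd, 1 at 2 hpd and 6 at 6 hpd. The shares of all tested TUs called with the block were not taken, so the block's counts here stand without a background. In the ELMO-DOCK-Rac list, 4 rose at 1 hpd, 9 at 2 hpd and 13 at 6 hpd and 1 fell at 2 hpd, and in the lipopolysaccharide list 1 fell at 1 hpd, 1 fell at 2 hpd and 1 rose at 2 hpd. The block brought Gm32525 past the threshold at 6 hpd (-0.51, adjusted p = 0.024).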
